A study of Mus musculus with 10 samples.

Results

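The 1000 widest accessible domains shared by all 9 libraries were promoters of CpG-rich genes in most cases. They were chosen from bulk ATAC-seq peak lists of sorted mouse cardiac cells. Intervals of all lists on chromosomes 1 to 19 that overlapped by at least 1 bp were joined into 154886 union regions, of which 44013 held an interval in all 9 libraries. For each region the widest interval of each library was taken, and the 1000 regions with the largest minimum over the 9 libraries were kept. They are called the members below. Since the widths chose them, widths are given as a description and without a test.

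All samples are labelled C57BL/6J and came from embryos carrying Rosa26tdTomato and Wt1CreERT2/+, in which tamoxifen at E9.5 labels cells with *Wt1* promoter activity and their descendants. Every group carries the Cre allele at *Wt1*, so none is wild type at that locus. The epicardium, the mesothelial layer on the heart, was sorted as CD31-tdTomato+PDPN+ cells from 6 pooled hearts per library at E11.5 (3 libraries) and from 4 per library at E17.5 (3 libraries). Epicardium-derived cells (EPDCs), the mesenchymal progeny of the layer, were sorted as CD31-tdTomato+PDPN- cells at E12.5 (1 library) and E13.5 (2 libraries, of which 1 joins 2 technical replicates). EPDCs of different days were treated as 1 group, so their day and their spread cannot be told apart, and E13.5 epicardium was not analysed here.

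ATAC-seq uses the Tn5 transposase to place adapters in accessible DNA, so that an interval marks where fragments pile up above background. At CpG islands, stretches of DNA that keep their CpG dinucleotides and usually lack DNA methylation, promoters are accessible in most cell types. Wide accessible stretches are known around the starts of genes for transcription factors and chromatin proteins, where several factors bind side by side and nucleosomes are displaced over more than the core promoter.

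The lists held 75234 to 109307 intervals. They give no read totals, so depth is unknown and the number of intervals is the only sign of it. Intervals on scaffolds and the mitochondrial genome were in all 3 EPDC lists and in none of the 6 epicardial lists, so the sorted population and the making of the list cannot be told apart in any comparison of EPDCs with epicardium. Of the 25 epicardial marker genes 23 had a start site in a region called in all 9 libraries, as had 22 of 23 mesenchymal, 9 of 14 endothelial, 4 of 13 cardiomyocyte and 1 of 12 blood and immune markers. Among the epicardial markers *Lrrn4* and *Msln* had none.

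Sequences at 6 members are shown because the results below turn on them: *Kmt2a*, the widest member among the listed chromatin regulators, *Maf* and *Twist1* from the epicardial and mesenchymal marker lists, *Plec* and *Etv1*, whose peaks differed between EPDCs and epicardium, and *Peg3*, which had the largest ratio of mean widths between groups without overlap. Each is 200 bases of mm10 (GRCm38) around a summit found in all 9 libraries, outside annotated exons and on the strand of the gene. Capitals mark exact matches, on either strand, to the GC box (GGGCGG), the CCAAT box (CCAAT) or the CRE (TGACGTCA).
*Kmt2a*, chr9:44881356-44881555, minus strand: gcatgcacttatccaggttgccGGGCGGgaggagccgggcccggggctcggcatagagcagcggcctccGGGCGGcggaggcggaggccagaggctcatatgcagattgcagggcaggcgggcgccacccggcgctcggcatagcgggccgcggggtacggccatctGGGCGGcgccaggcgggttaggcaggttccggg
*Maf*, chr8:115707815-115708014, minus strand: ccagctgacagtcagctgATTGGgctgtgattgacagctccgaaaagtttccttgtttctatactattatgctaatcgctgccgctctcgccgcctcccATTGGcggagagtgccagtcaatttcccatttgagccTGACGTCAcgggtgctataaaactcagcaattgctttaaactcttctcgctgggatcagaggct
*Twist1*, chr12:33957435-33957634, plus strand: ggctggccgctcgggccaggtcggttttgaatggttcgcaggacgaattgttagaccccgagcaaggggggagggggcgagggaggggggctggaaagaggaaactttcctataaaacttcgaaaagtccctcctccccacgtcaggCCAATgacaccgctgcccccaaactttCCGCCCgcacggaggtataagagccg
*Plec*, chr15:76207508-76207707, minus strand: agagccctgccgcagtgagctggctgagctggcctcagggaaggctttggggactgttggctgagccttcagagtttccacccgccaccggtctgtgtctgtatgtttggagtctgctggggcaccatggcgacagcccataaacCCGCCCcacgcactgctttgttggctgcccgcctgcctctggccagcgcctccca
*Etv1*, chr12:38778658-38778857, plus strand: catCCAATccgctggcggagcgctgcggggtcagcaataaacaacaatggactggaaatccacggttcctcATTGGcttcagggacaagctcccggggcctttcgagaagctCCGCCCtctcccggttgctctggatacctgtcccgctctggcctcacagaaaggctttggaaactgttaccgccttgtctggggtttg
*Peg3*, chr7:6728536-6728735, minus strand: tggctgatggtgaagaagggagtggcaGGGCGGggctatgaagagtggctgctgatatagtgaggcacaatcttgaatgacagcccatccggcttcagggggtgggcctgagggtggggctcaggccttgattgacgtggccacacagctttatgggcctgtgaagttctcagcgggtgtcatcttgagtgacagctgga
The *Kmt2a* summit lay 160 bp upstream of the start site and its window held 23 CpG dinucleotides and 3 GC boxes. The *Maf* window, 121 bp upstream of its start, held 2 CCAAT boxes and 1 CRE. The *Peg3* window, 1785 bp downstream of the start, held 4 CpG dinucleotides.

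The minimum width of the members ran from 1512 to 3200 bp with a median of 1680.5 bp. The other regions called in all 9 libraries had a median minimum width of 527 bp. The last members inside the limit, a region near *1700011L22Rik* and the *Mpnd* promoter, both had 1512 bp, and a region near *Ankrd6*, just outside it, had 1511 bp. The median width of the members was 1878, 1854.5 and 1841 bp in the E11.5 libraries and 1763, 1870 and 1860 bp in the E17.5 libraries. It was 1802.5 bp in the E12.5 EPDC library and 1818 and 1960.5 bp in the E13.5 EPDC libraries. E17.5 replicate 1, which has the fewest intervals, set the minimum of 339 members, and E13.5 EPDC sample 2 set that of 3. The widest library exceeded the narrowest by a median of 1.16 times, by under 1.2 times in 649 members and by over 1.5 times in 73. A choice by the minimum leaves out regions that are narrow in any library, so it favours such even widths. A further 427 regions reached 1512 bp in 8 of 9 libraries, and E17.5 replicate 1 was the narrow one in 189 of them.

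**Figure D1:**
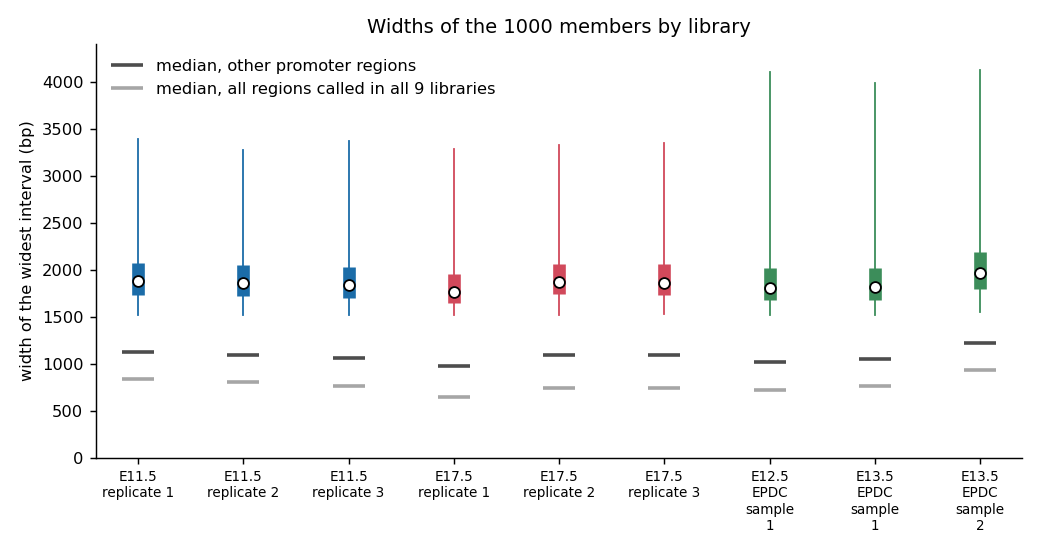
Width in bp of the widest interval of each member in each of the 9 libraries; circles are medians, thick bars quartiles, thin lines the full range, and dashes the medians of other promoter regions (dark) and of all regions called in all 9 libraries (light). The member medians lie between 1763 and 1960.5 bp.

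The widest member held the start of *Ppp2r3d* (ENSMUSG00000093803), which encodes a regulatory subunit of protein phosphatase 2A, at chromosome 9, 124422622 to 124425988. Its widths were 3288, 3277 and 3232 bp in the E11.5 libraries, 3281, 3322 and 3275 bp in those of E17.5 and 3252, 3200 and 3258 bp in EPDCs. The next was *Ddit3* (ENSMUSG00000025408), a stress-induced transcription factor, at chromosome 10, 127288398 to 127291674, with a minimum of 2909 bp. *Tfap4*, a helix-loop-helix factor, followed with 2824 bp and *Gm45546*, a transcript of unconfirmed kind on chromosome 8, with 2784 bp. Then came *Nr3c1*, the glucocorticoid receptor, with 2775 bp, *Tent5a*, a poly(A) polymerase, with 2638 bp, and *Kmt2a* (ENSMUSG00000002028), a histone H3 lysine methyltransferase, with 2617 bp. *Rreb1*, a zinc finger factor downstream of Ras, had 2603 bp, *Nol4l* 2584 bp and *Sema4c*, a transmembrane semaphorin, 2531 bp. Of these 10 regions 9 held the start of a protein-coding gene by which they are named.

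A protein-coding start site lay in 905 of the 1000 members (90.5%), against 29.1% of all regions called in all 9 libraries. Another 23 members held only the start of a non-coding or unclassified transcript, most often a lincRNA (9 members), and 72 held none. Of the 905, 12.7% held the start of more than 1 protein-coding gene, against 8.63% of the 11902 other promoter regions, and in 105 members such genes ran on opposite strands. The median CpG observed over expected ratio was 0.767 in the members, 0.685 in the other promoter regions and 0.321 in all regions. It passed 0.6 in 86.6% of members, 67.6% of other promoter regions and 23.8% of all regions. The median GC content was 62.6%, 58.7% and 51.3% in the same order. These shares describe the regions, and longer regions have more room for a start site: the members' union regions had a median length of 2052.5 bp.

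In the 785 members with 1 protein-coding gene whose start lay inside the interval, accessibility reached a median of 767 bp upstream and 1101 bp downstream of the start. It was longer downstream in 533 of them (67.9%). The other promoter regions reached 424 bp upstream and 602 bp downstream and were longer downstream in 70.1%. The longer reach follows from the choice by width. The members held a median of 3 summits in 7 libraries, 4 in E17.5 replicate 2 and 2 in E13.5 EPDC sample 2, against 1 in all regions. The strongest summit stayed within 100 bp across the 9 libraries in 41.7% of members and 59.2% of other promoter regions, and moved by over 500 bp in 26.2% and 8.93%.

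The 72 members without any start site were less CpG-rich, with a median ratio of 0.6, but far above the 0.254 of other regions without one. The widest lay on chromosome 18 at 35918209 to 35921018, 44.5 kb from *Psd2*, with a minimum of 2421 bp. Among the next were regions 64.5 kb from *Ppara* (2071 bp) and 6.05 kb from *Sox4* (2063 bp). The CpG ratios of these 3 regions lay between 0.575 and 0.86.

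In windows of 300 bp around the summit, the GC box, bound by Sp and Krüppel-like factors, was found in 75.3% of members, 70.6% of other promoter regions and 32.4% of all regions. The E-box CACGTG was found in 11.2%, 9.83% and 7.18% in that order, and the CCAAT box in 33.3%, 35.3% and 30.9%. The letters CCGGAAGT of ETS factors were in 3.5% of members and 7.34% of other promoter regions, GCGCATGCG of NRF1 in 1.9% and 3.08%, AAGATGGCG of YY1 in 2.2% and 2.97%, and the CRE in 2.4% and 3.36%. Motifs typical of distal elements were rarer than in all regions: AP-1 (TGACTCA) in 3.9% against 13.4%, the letters AGATAA, which GATA factors bind, in 2.6% against 16.3%, TEAD (CATTCC) in 11.4% against 22.9%, with AP-1 and TEAD at 3.92% and 10.4% of the other promoter regions. The T-box letters AGGTGTGA were in 0.5% of members and 0.763% of all regions. Both strands were searched.

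Of the 13217 protein-coding genes with a start site in a region called in all 9 libraries, 1018 (7.7%) had one in a member. By list, chromatin regulators had 8 of 28, among them the methyltransferase gene *Kmt2a*, the acetyltransferase genes *Ep300* and *Crebbp*, *Ctcf* and *Rad21* of chromatin loops, *Eed* of the Polycomb complex and *Tet3*, which oxidizes methylcytosine. Krüppel-like and Sp factors had 6 of 21 (*Klf11*, *Klf12*, *Klf15*, *Klf16*, *Sp3* and *Sp4*) and forkhead factors 6 of 32. Of the signalling lists, Hippo had 4 of 18, with the coactivator *Yap1* and its partners *Tead1* and *Tead3* beside *Amotl2*, TGF-beta and BMP 5 of 24, with *Skil*, a repressor of SMADs, the widest at 2528 bp, Wnt 4 of 20, with the feedback inhibitors *Axin2* and *Znrf3* and the receptors *Fzd1* and *Lrp6*, retinoic acid 3 of 15, Hedgehog 2 of 12, with *Gli2* at 2213 bp and *Gli3* at 1738 bp, and Notch 1 of 15, the ligand *Jag2*. Nuclear receptors had 5 of 37 and Sox factors 2 of 17.

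Among housekeeping lists, 1 of 71 ribosomal protein genes with a called start had one in a member (1.41%, against 7.7% of all protein-coding genes). It was *Rpl7*, which shares its region with *Rdh10*. Proteasome genes had 1 of 34 (2.94%) and cell cycle genes 1 of 22 (4.55%). Zinc finger Zfp genes had 18 of 305 (5.9%), solute carriers 14 of 207 (6.76%) and histone genes 4 of 48 (8.33%), all near the 7.7%. No Hox gene (23 with a called start), T-box gene (8) or Meis or Pbx gene (7) had a start in a member, and the widest among them were *Hoxb2* with 1315 bp, *Pbx3* with 1199 bp and *Tbx3* with 1191 bp. At a share of 7.7%, lists of 7, 8 or 23 genes can hold few or none. No list was tested, so these shares are descriptions.

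**Figure D2:**
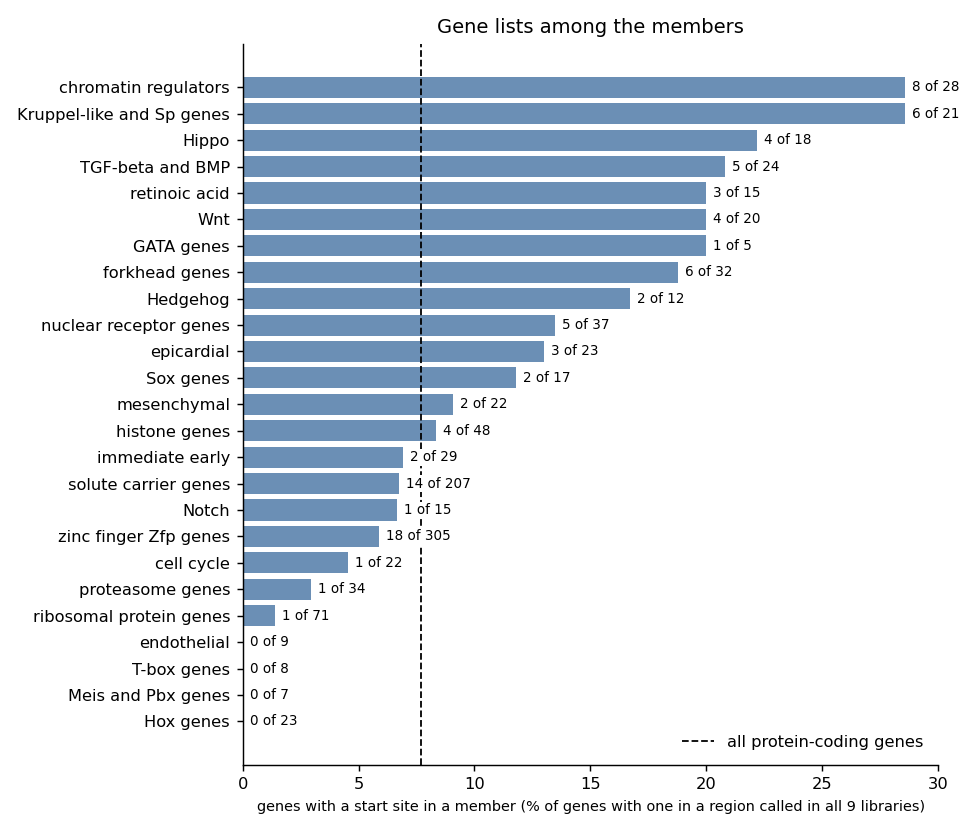
Share of the genes of each list that start in a member, in percent of the genes with a start in a region called in all 9 libraries; the numbers give the counts and the dashed line the 7.7% of all protein-coding genes. Lists with fewer than 5 called genes are left out.

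Of the 23 epicardial markers with a called start 3 (13.0%) were members, against the 7.7% of all protein-coding genes: *Gata6* (1712 bp), *Maf* (1678 bp) and *Bnc2* (1561 bp), all genes of transcription factors. *Aldh1a2*, which makes retinoic acid, had 1301 bp, *Tbx18* 833 bp, *Tcf21* 830 bp, *Wt1* 731 bp and *Upk3b* 398 bp. Of the 22 mesenchymal markers 2 (9.09%) were members, *Zeb1* (2260 bp) and *Twist1* (1686 bp), which encode inducers of epithelial-to-mesenchymal transition, while *Snai2* had 1189 bp, *Zeb2* 1161 bp, *Col1a1* 1080 bp and *Snai1* 793 bp. No endothelial, cardiomyocyte or blood marker was a member. The *Maf* widths were 2651, 1899 and 1929 bp at E11.5, 1678, 1901 and 1796 bp at E17.5 and 2648, 2676 and 2768 bp in EPDCs, so that E11.5 replicate 1 stood with the EPDCs. Those of *Twist1* ran from 1686 to 2352 bp, with the lowest in E17.5 replicate 1 and no order by group.

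Widths were also set side by side by stage, as a description, since the choice by width limits how far they can differ. Every E17.5 library was wider than every E11.5 library at 137 members (13.7%, against 9.79% of all regions), and the reverse held at 204 (20.4%, against 33.2%). Of other promoter regions 11.3% and 22.7% were so separated. The E11.5 lists held 97146, 109307 and 106554 intervals and the E17.5 lists 75234, 93617 and 82811. Stage and size of the list therefore cannot be told apart in these widths. The mean widths differed by over 1.2 times at only 10 and 25 of the members. At *Sept8*, a septin of the cytoskeleton, the intervals spanned 1565, 1860 and 1589 bp at E11.5 and 2721, 2687 and 2695 bp at E17.5, a ratio of means of 1.62. The EPDCs, with 1630 to 1818 bp, lay near E11.5. A region near *B4galnt4* (ratio 1.4), *Map3k1*, a MAP kinase kinase kinase (1.33), *Qser1* (1.27) and *Ccdc171* (1.26) were also wider at E17.5. At *Ppp3ca*, the catalytic subunit of calcineurin, the intervals spanned 2497, 2507 and 2529 bp at E11.5 and 1543, 1620 and 1566 bp at E17.5, a ratio of 1.59, and the EPDCs, with 2418 to 2529 bp, again lay near E11.5. *Gm19744* and *C1ql3* (both 1.38) and *Nol4l* and *Alyref2* (both 1.37) followed. This *Nol4l* region, at chromosome 2, 153443648 to 153446469, is not the one among the 10 widest.

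Every EPDC library was wider than all 6 epicardial libraries at 43 members (4.3%, against 7.15% of all regions and 4.1% of other promoter regions). Every one was narrower at 27 (2.7%, against 4.68% and 2.23%). At *Peg3* (ENSMUSG00000002265), an imprinted zinc finger gene expressed from the paternal allele, the epicardial intervals spanned 1534 to 1585 bp and the EPDC intervals 3192, 3360 and 3409 bp, a ratio of 2.15. A region 2.32 kb from *Tchh* spanned 1956 to 2516 bp and 3982 to 4104 bp (ratio 1.92), and *Col14a1*, a fibril-associated collagen of fibroblasts, 1574 to 1829 bp and 2312 to 2716 bp (1.53). *Sall3* (1.37) and *Ntng2* (1.26) followed. At *Gnptab*, which tags lysosomal enzymes, the EPDC intervals were narrower (1538, 1599 and 1694 bp against 2037 to 2153 bp, ratio 1.3), as at *Sh3pxd2a* (1.19), a scaffold of invasive protrusions, *Tiparp* and *Pmepa1* (both 1.17) and a region near *Col6a2* (1.14). What part the different make-up of the EPDC lists has in these widths was not tested.

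**Figure D3:**
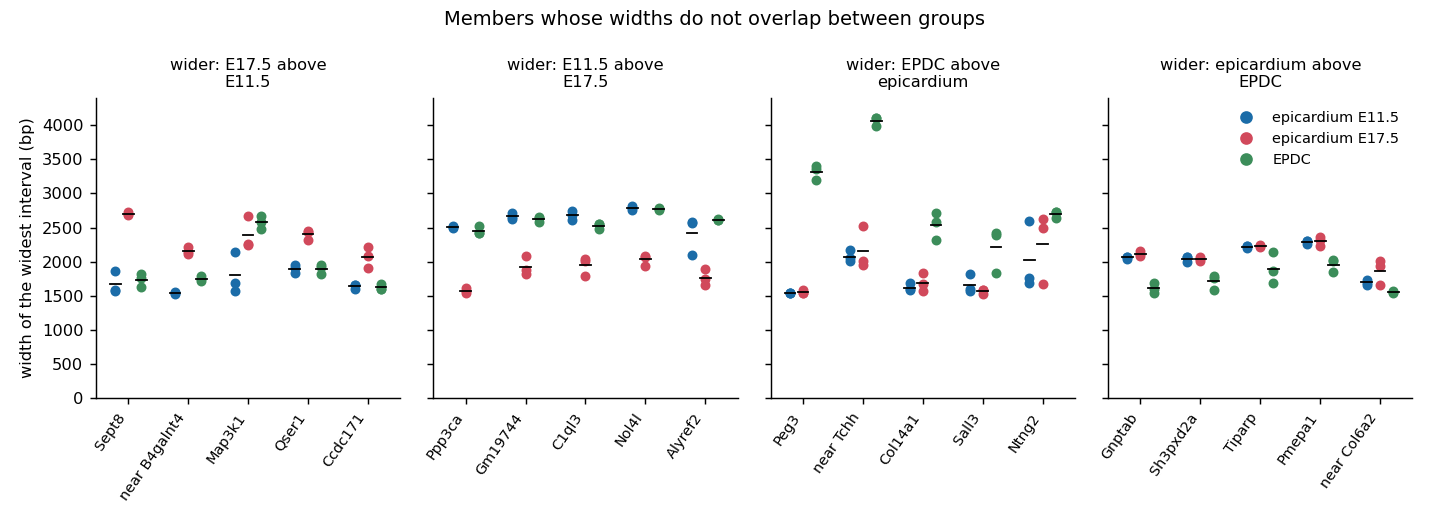
Width in bp of the widest interval in each library (points, coloured by group, bars at group means) for the 5 members with the largest ratio in each of 4 comparisons. *Peg3* and the region near *Tchh* show the widest gap, with EPDC intervals of 3192 bp and more.

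Peak height, which the choice of members did not use, was taken as the fold enrichment over local background of the strongest summit in a region, on the log2 scale, with each library centred on its median over the 44013 regions. A wide region need not be a high one: across all regions minimum width and mean height had a Spearman correlation of 0.51, across promoter regions 0.01 and within the members -0.32. These are descriptions across regions of the same libraries. The median height of the members lay below that of the other promoter regions in 9 of 9 libraries, with a median fold enrichment of 8.4 to 12.8 against 11.2 to 16.4. By rank percentile of −log10 p it lay below in 7 of 9, and was 87.96 against 87.78 in the E12.5 EPDC library and 88.66 against 88.65 in E13.5 EPDC sample 1. In such bulk data a region open in fewer cells and one less open in each cell cannot be told apart.

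Between the stages, 75 members (7.5%) passed an adjusted p of 0.05 by limma, with Benjamini-Hochberg adjustment over all 44013 regions, against 25.6% of all regions. Of these, 68 were higher at E17.5 (6.8%, against 13.1% of all regions and 11.1% of other promoter regions). Lower were 7 of the 1000 (0.7%, against 3.39% of other promoter regions and 5515 of the 44013 regions). The split depends on the centring. With libraries centred on promoter regions, a setting added after the data were seen, 46 were higher (against 8.14% of all regions) and 40 lower (against 16.2%). Under both centrings 46 members were called higher (against 8.13% of all regions) and 7 lower (against 12.2%). By rank percentile of −log10 p, 41 were higher (against 6.33% of all regions) and 194 lower (against 32.2%). Without centring, 41 were higher (against 10.3%) and 2 lower (against 11.3%). By the mean over summits, 29 were higher and 4 lower. The median absolute difference was 0.136 in the members, 0.229 in all regions and 0.15 in other promoter regions. The members' value was no larger than their median SE of 0.14, and the sets were not tested against each other. Leaving out E11.5 replicate 1, 2 or 3 left 43, 26 or 27 members higher and 2, 3 or 3 lower, leaving out E17.5 replicate 1, 2 or 3 left 36, 39 or 31 higher and 4, 1 or 2 lower. Without the E12.5 EPDC library, which enters through the shared spread, there were 98 and 19, and without E13.5 EPDC sample 2 there were 79 and 13. No share of all regions is given for these repeats or the mean over summits. A change in the members and one in calling everywhere cannot be told apart there.

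*Aplp1*, which encodes an amyloid precursor-like protein, had fold enrichments of 4.64, 5.31 and 5.36 in the E11.5 libraries against 7.82, 8.92 and 8.49 in those of E17.5, without overlap. The difference was 0.73 ± 0.14 (log2, SE, adjusted p = 0.0012 by limma), and the EPDCs stood higher still at 10.1 to 11.6. *Snx10*, a sorting nexin, rose from 8.2 to 8.79 at E11.5 to 12.4 to 15.3 at E17.5 (0.71 ± 0.12, adjusted p = 0.00063 by limma). *Tmtc1* (0.69), a region 1.72 kb from *4930404N11Rik* (0.67) and *Gm19744* (0.65) were the next. *Gm19744*, a non-coding transcript, was narrower and higher at E17.5. *Kmt2a* was higher too, at 7.82 to 9.24 against 5.51 to 6.78 (0.46 ± 0.15, adjusted p = 0.032 by limma). *Chst15*, which sulphates chondroitin chains, fell from 6.9, 9.1 and 9.61 to 5.3, 4.77 and 5.72 (-0.68 ± 0.17, adjusted p = 0.0085 by limma). *Sec14l1* (-0.50), *Sh3pxd2a* (-0.46), *Ptprf*, a receptor tyrosine phosphatase (-0.44), and *Zfp407* (-0.43) were lower as well. With the mean over all summits of a region in place of the strongest, *Gm19744* (0.99) alone of these 10 largest differences kept its call. By that measure *Aplp1* came to 0.07 (adjusted p = 0.77 by limma), *Snx10* to 0.26 (0.38) and *Chst15* to -0.21 (0.37), *Tmtc1* turned to -0.04 and *Sec14l1* to 0.03. By rank percentile of −log10 p the calls of *Aplp1* (adjusted p = 0.13 by limma) and *Gm19744* (0.056) were lost. *Sh3pxd2a*, *Ptprf* and *Zfp407* lost the call on leaving out any 1 of the 6 epicardial libraries, with adjusted p from 0.056 to 0.13 by limma, and *Sec14l1* without E17.5 replicate 2 (0.051). Without centring, *Sh3pxd2a* (adjusted p = 0.061 by limma), *Ptprf* (0.063) and *Zfp407* (0.069) were not called either.

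Against both epicardial stages together, 171 members were higher in EPDCs (17.1%, against 20.2% of all regions and 17.0% of other promoter regions). Lower were 12 (1.2%, against 20.3% and 5.35%). Centred on promoter regions, 58 were higher (against 12.0% of all regions) and 53 lower (against 27.7%), and 58 (against 12.0%) and 12 (against 20.1%) were called in the same direction both ways. Against E11.5 epicardium alone 161 were higher (against 15.9%) and 0 lower (against 17.0%) by limma, with 3 lower at an unadjusted p under 0.05, and against E17.5 epicardium alone 116 were higher (against 19.5%) and 26 lower (against 20.8%). By rank percentile of −log10 p, 140 were higher (against 19.1%) and 75 lower (against 24.6%). Without centring, 290 were higher (against 25.6%) and 2 lower (against 15.9%). The median absolute difference was 0.179 in the members, 0.262 in all regions and 0.164 in other promoter regions. Leaving out the E12.5 EPDC library left 86 higher and 24 lower, leaving out E13.5 EPDC sample 1 left 80 and 3, and leaving out E13.5 EPDC sample 2 gave 266 and 4. Without E11.5 replicate 1 or 2 there were 4 or 6 lower, without E11.5 replicate 3 there were 8, and without E17.5 replicate 2 or 3 there were 7 each. These repeats too are given without the share of all regions. The E12.5 EPDC library also had the largest median height of the members relative to all regions, at 0.264 against -0.143 to 0.066 in the other 8.

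*Card10*, a scaffold of NF-κB signalling, had fold enrichments of 3.69, 3.8 and 3.62 at E11.5, 4.64, 4.42 and 4.55 at E17.5 and 8.74, 7.61 and 7.65 in EPDCs. The difference was 0.87 ± 0.13 (log2, SE, adjusted p = 7.1e-05 by limma), without overlap. *Plec*, the cytoskeletal linker plectin whose window is printed above, had 5.82 to 7.19 in epicardium and 11.7 to 13.9 in EPDCs (0.83 ± 0.12, adjusted p = 8e-05 by limma). A region 280 kb from *Rbbp8* (0.83), *Kat2b*, a histone acetyltransferase (0.68), and *Clip1*, a microtubule plus-end protein (0.67), were also higher. In fold enrichment before centring, all 5 had no overlap between the 3 EPDC and the 6 epicardial libraries. Averaged over summits, *Card10* (0.92) alone of the 5 kept its call, *Kat2b* came to 0.21 (adjusted p = 0.32 by limma), *Clip1* to 0.22 (0.23), *Plec* to -0.13 and the region near *Rbbp8* to -0.21.

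Lower in EPDCs were *Tmco4* (-0.52 ± 0.12, adjusted p = 0.0024 by limma), *Tmc6* (-0.48), *Stc2*, a secreted glycoprotein (-0.43), *Ocln*, the tight junction protein occludin (-0.42), and *Etv1*, an ETS factor (-0.39). *Ocln* had 6.92, 8.96 and 6.73 at E11.5, 8.76, 8.63 and 11.1 at E17.5 and 6.17, 7.04 and 6.95 in EPDCs, so the groups overlap. *Etv1* had 9.17 to 11.6 in epicardium and 6.71 to 9.58 in EPDCs. *Tmco4* had 8.27, 9.92 and 11.2 at E11.5, 13.0 to 15.0 at E17.5 and 10.4, 8.65 and 7.19 in EPDCs, so that its EPDC values lay below those of E17.5 but overlapped those of E11.5. In fold enrichment before centring, all 5 overlapped between EPDCs and epicardium. The differences and adjusted p are of centred heights, on which overlap can differ. Averaged over summits none of the 5 kept its call: *Tmco4* came to -0.03 (adjusted p = 0.88 by limma), *Stc2* to -0.02 (0.91), *Ocln* to -0.19 (0.37), *Tmc6* to 0.13 and *Etv1* to 0.11. *Ocln* (adjusted p = 0.095 by limma), *Stc2* (0.080) and *Etv1* (0.091) lost the call without centring, and *Ocln* (0.083) and *Stc2* (0.063) with quantile normalization. *Ocln* also lost its call without E11.5 replicate 1 or 2, E17.5 replicate 3, the E12.5 EPDC library or E13.5 EPDC sample 1 (0.060 to 0.098). *Stc2* lost it without E13.5 EPDC sample 1 (0.075) or 2 (0.057), and *Etv1* without E13.5 EPDC sample 2 (0.076). Among the 35 members named by the 14 lists of cell type, signalling, chromatin and cell cycle genes, 1 was higher (2.86%, against 6.8% of all members and 13.1% of all regions) and none lower at E17.5 (*Kmt2a*), and 3 were higher (8.57%, against 17.1% and 20.2%) and none lower in EPDCs. At an unadjusted p under 0.05 by limma, 1 was lower in each comparison. The 3 higher in EPDCs were *Bnc2* (0.36), *Twist1* (0.40) and the immediate early gene *Egr1* (0.42). With promoter centring none of the 3 was called, with adjusted p = 0.12, 0.10 and 0.12 by limma.

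**Figure D4:**
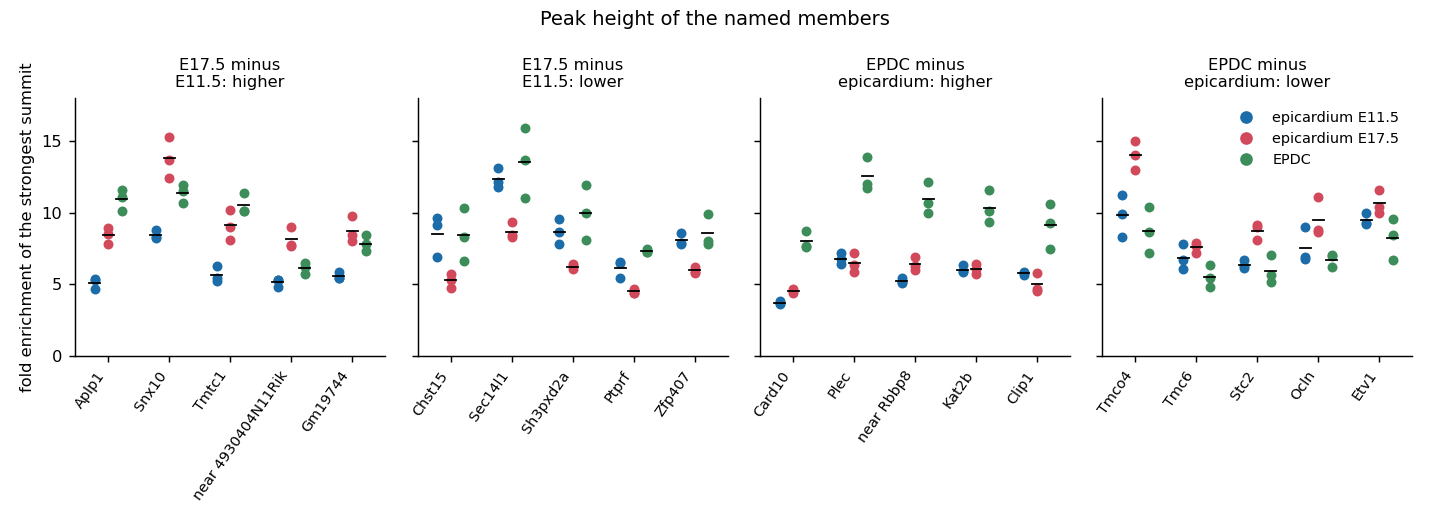
Fold enrichment of the strongest summit, before centring, in each library (points, coloured by group, bars at group means) for the 5 called members with the largest difference in each comparison and direction. *Card10* and *Plec* separate EPDCs from all 6 epicardial libraries.

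**Figure D5:**
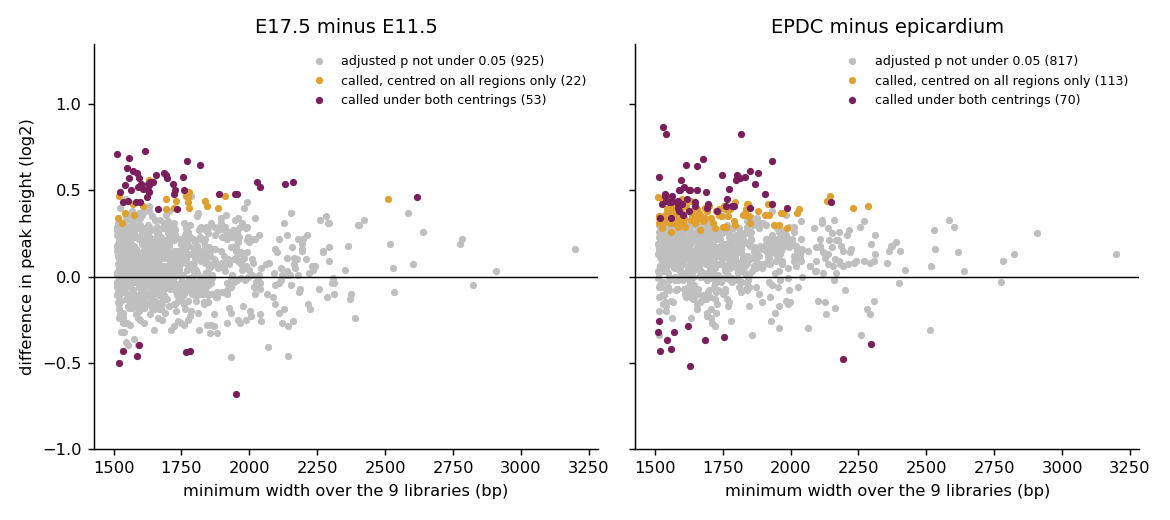
Difference in peak height (log2) of each member against its minimum width in bp, for both comparisons; purple points were called in the same direction under both centrings, orange points only with centring on all regions. Of the stage calls 53 and of the EPDC calls 70 are purple.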

How the data were processed

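The members and gene lists were chosen with earlier results of these data known. The authors aligned reads to mm10 and ran MACS2 2.2.9.1 on paired fragments of each library, keeping every summit. The deposited lists give interval positions, a fold enrichment (ratio over local background) and −log10 p and q per summit, with no scaling between libraries and a lowest −log10 q of 2.0 in every list. The methods describe removal of mitochondrial and blacklisted reads, yet the EPDC lists hold mitochondrial intervals.

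Widths are interval end minus start. Genes and start sites came from GENCODE M21, sequence from GRCm38.p6. Log2 heights were fitted with limma 3.58.1 (R 4.3.3; group means, trended empirical Bayes) in regions called in all 9 libraries, without imputation. EPDCs were set against the mean of both epicardial stages. On simulated stage differences over 44013 regions, 69 of 100 of 1 log2 unit and 7 of 100 of 0.5 were recovered, with 2 false calls. Small differences were mostly missed there. Far fewer regions were changed in it than the 25.6% called between the stages, so the share missed in the data cannot be read from it. Biological replicates are pooled hearts. Named were the 10 widest members, those at the limit, the 5 largest called differences per direction, the 5 largest width ratios without overlap, the 5 widest without a start site, and members of the lists, apart from some genes and regions that are not reported here. *Hoxb2*, *Pbx3*, *Tbx3* and the marker genes outside the members were named after their values were seen. Python 3.11.15 was used.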

Additional observations from a re-analysis of the deposited data

Results flagged for a closer look

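On the X chromosome, which the choice of members left out, 21 regions reached 1512 bp in all 9 libraries. The widest with a protein-coding start was *Hcfc1*, a coregulator of transcription, at 1888 to 2172 bp, followed by *Ddx3x*, an RNA helicase, at 1795 to 2133 bp. On scaffolds and the mitochondrial genome, 23 intervals of 1512 bp or more were listed, 7, 8 and 8 in the 3 EPDC libraries, and none in the 6 epicardial libraries.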

How the results depend on the processing

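The share of members with a protein-coding start site stayed between 89.1% and 91.2% under every other rule of choice (500 or 2000 regions, width percentile, bases covered, stricter −log10 q, touching intervals, each library left out), but was 75.3% when the start had to lie within 500 bp of the strongest summit. The median CpG ratio moved from 0.767 to 0.752 with 2000 regions and 0.745 by bases covered. Ranking by bases covered kept 702 of the 1000 members, and leaving out E17.5 replicate 1 kept 868.

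Members called higher and lower at E17.5 (68 and 7) became 41 and 2 without centring, 41 and 194 by rank percentile, 29 and 4 by the mean over summits, 89 and 14 after quantile normalization, 63 and 13 at a −log10 q of at least 5, and 46 and 40 with promoter centring. In EPDCs (171 and 12) they became 290 and 2 without centring, 140 and 75 by rank percentile, 157 and 4 by the mean over summits, 240 and 7 with regions in at least 2 libraries of each group, and 58 and 53 with promoter centring. Against E11.5 alone 161 and 0, and against E17.5 alone 116 and 26, were called. Leaving out 1 library each gave 26 to 98 and 1 to 19 for the stages and 80 to 266 and 3 to 24 for EPDCs. Where the Results give no share of all regions for a setting, its counts show only how the member calls move. With the replicate block the counts were 56 and 6, and 76 and 7, and of the 20 named differences *Zfp407* (adjusted p = 0.058) and *Ocln* (0.10) lost the call. Replicate numbers did not pair the samples: deviations of same-numbered epicardial libraries correlated at 0.029, 0.075 and -0.055, and not every library correlated best with its own number. The median of all regions moved by 0.144 (log2) in EPDCs without centring, against 0.052.

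Of 340 repeats of the 20 named height differences, 283 kept call and direction, 51 lost the call and 6 reversed, all by the mean over summits: *Tmtc1* -0.04, *Sec14l1* 0.03, *Plec* -0.13, the region near *Rbbp8* -0.21, *Tmc6* 0.13 and *Etv1* 0.11. The causes were not tested. Precision is limited by 3 libraries per group and unknown depth.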

Other observations

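Some regions were wide in 1 group and narrow in another. In all 3 EPDC libraries but none of the 6 epicardial ones, 92 regions reached 1512 bp while every epicardial interval was under 1000 bp, and 69 of them had no epicardial interval at all. Of the 92, 7 were named for histone genes, among them *Hist2h2ac* and *Hist1h1b*, and others for the small nuclear RNAs *Rnu1b6* and *Rn7sk*, genes that have near-identical copies. No share over all regions is given beside these 7. Regions named *Gm10721* and *Gm10718* on chromosome 9 spanned 6206 to 11163 bp in EPDCs and had no epicardial interval. Several on chromosome 14, such as *Gm3005* and *Gm3002*, had none either. What part the different make-up of the EPDC lists has in the 92 was not tested. No region was wide in all 6 epicardial libraries and under 1000 bp in all 3 EPDC libraries. Between the stages, 75 regions reached 1512 bp in all 3 E11.5 libraries and were under 1000 bp in all 3 E17.5 libraries, among them *Nrg1*, *En2* and *Tac1*, and 12 did the reverse, among them *Wnt7b*, *Tmem100* and *Ier5*. The EPDC libraries were not part of that comparison, and *Nrg1* (1544 to 1772 bp) and *En2* (1911 to 1972 bp) were wide in all 3 of them. These genes were picked after their values were seen, and stage and size of the list cannot be told apart here either.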
